A study of Mus musculus with 2 samples.

Results

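The C1q-positive kidney macrophages were 128 of the 21661 cell barcodes kept from 2 single-cell RNA libraries of lupus-prone mouse kidneys. They were selected on counts of unique molecular identifiers (UMIs), each of which stands for 1 captured transcript. Among barcodes on which 200 or more genes were detected and mitochondrial UMIs did not exceed 20%, one was taken when it held at least 5 UMIs summed over C1qa, C1qb and C1qc, at least 1 UMI of Csf1r or Adgre1, and no UMI of the lymphocyte genes Cd3d, Cd3e and Cd79a. In the young library 83 of 11429 barcodes met this rule, a share of 0.726% (exact Clopper-Pearson 95% interval 0.579 to 0.899). In the old library 45 of 10232 did, a share of 0.440% (0.321 to 0.588). The 3 young macrophages nearest to the C1q threshold held 10, 16 and 19 C1q UMIs, and the 3 nearest in the old library held 8, 10 and 11. Of the barcodes that met the rest of the rule and fell short of the threshold, the nearest held 2, 2 and 2 C1q UMIs in the young and 3, 2 and 1 in the old library. A further 7 young and 11 old barcodes passed the C1q and Csf1r or Adgre1 conditions and were left out for a lymphocyte UMI.

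The cells came from MRL-lpr mice, which carry the lpr mutation of Fas and develop lupus-like kidney disease with age, and the study compared young with old animals to follow innate lymphoid cells (ILCs) in that disease. Both groups were MRL-lpr and no treatment was named for them, so a strain without the mutation is not part of this comparison. Kidneys were pooled by age, leukocytes were concentrated on a density gradient, a magnetic pan-ILC kit was applied and live cells were sorted, and 1 library with 10x 3′ chemistry was made per age. The kit was designed to keep ILCs, so the macrophages described here were those that passed it, and their shares are not frequencies of the kidney. With 1 pooled library per age no difference between ages was tested. All intervals cover counting error only, and age cannot be told apart from library, pool or handling.

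C1q is the recognition component of the classical complement pathway, and its A, B and C chains are made mainly by macrophages. It binds immune complexes and dying cells and promotes their removal, and its inherited absence predisposes to lupus. Kidney macrophages depend on signals through the Csf1 receptor, carry the surface protein F4/80 (encoded by Adgre1), take up debris and present antigen, and arise both from long-lived resident cells and from blood monocytes.

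The C1q and Csf1r transcripts of the rule were at like levels in both libraries, and Adgre1 was higher in the young. Summed over all macrophages of a library and divided by their total, C1qa was at 4021 counts per 1000000 (CPM; 95% interval 3865 to 4181) in young and 4449 CPM (4326 to 4574) in old cells. Csf1r was at 542 CPM and 539 CPM, and Adgre1 at 256 CPM and 148 CPM. These values describe the choice of cells and test nothing. Per cell, the 3 C1q genes together made up 7.40 to 289 UMIs per 10000 in young macrophages (median 120) and 2.59 to 293 in old (median 81.8). Genes that the rule did not use bore on the label as well. Spi1, the transcription factor PU.1 of the myeloid lineage, was at 344 CPM in young and 554 CPM in old macrophages, and Ptprc, the leukocyte antigen CD45, was detected in 80 of 83 and 42 of 45. The 6 conventional dendritic cell markers summed to 14.4 CPM in young and 11.6 CPM in old macrophages, with 4 and 3 of the 6 at 0. Flt3, a member of that list and the defining receptor of conventional dendritic cells, had no UMI in either library. The resident macrophage genes Cd163, Lyve1 and Vsig4 had none either, while Cx3cr1, the fractalkine receptor, was at 484 CPM and 397 CPM.

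The old macrophages were the more deeply captured. They held a median of 24164 UMIs (1336 to 69737) and 4440 genes, and the young ones 4986 UMIs (1058 to 63546) and 1868 genes. The old library had the higher median in most other classes too, by less: it was 4036 UMIs in young and 7491 in old B cells, and 8512 and 10293 in C1q-negative monocytes. In T cells it was 5220.5 and 5170. The Scrublet caller marked 6 young and 0 old macrophages as doublets, and none of the 26 barcodes shared by the libraries was a macrophage. The study's methods name female mice, yet 33 young macrophages held UMIs of Y-linked genes and none of Xist, 18 held Xist and no Y-linked UMI, 2 held both and 30 neither. In the old library these numbers were 18, 15, 6 and 6.

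RNA of proximal tubule cells was more abundant in the young macrophages. The 8 tubule markers (Lrp2, Cubn, Slc34a1, Slc5a2, Slc22a6, Kap, Miox and Gpx3) made up a median of 0.377% of the UMIs of a young macrophage and 0.0545% of an old one. The highest young cell reached 14.9% and the highest old cell 0.299%. Of all tubule marker UMIs in young macrophages 91.4% came from 6 cells, and 5 cells were over 2%. All 8 markers had UMIs in both libraries, and their summed level was 33692 CPM in young and 470.4 CPM in old macrophages. Kap, an androgen-regulated kidney gene, was at 27275 and 257 CPM, a log2 ratio of -6.73 that became -3.40 without the 5 cells. Neutrophil markers (6 genes) summed to 2118 CPM in young and 2273 CPM in old macrophages and sat in few of them. Of 701 young S100a9 UMIs 629 came from 2 cells, and all 1349 old ones from 2. The 8 T cell markers summed to 86.3 and 28.5 CPM, with 2 of the 8 at 0 in each library. No UMI of the 8 further lineage genes Cd3g, Cd79b, Ms4a1, Trbc2, Ncr1, Siglech, Lrp2 and Slc34a1 was held by 13 young and 17 old macrophages, so most cells held at least 1 such UMI. The part of these other cells in the results below was not tested.

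**Figure D1:**
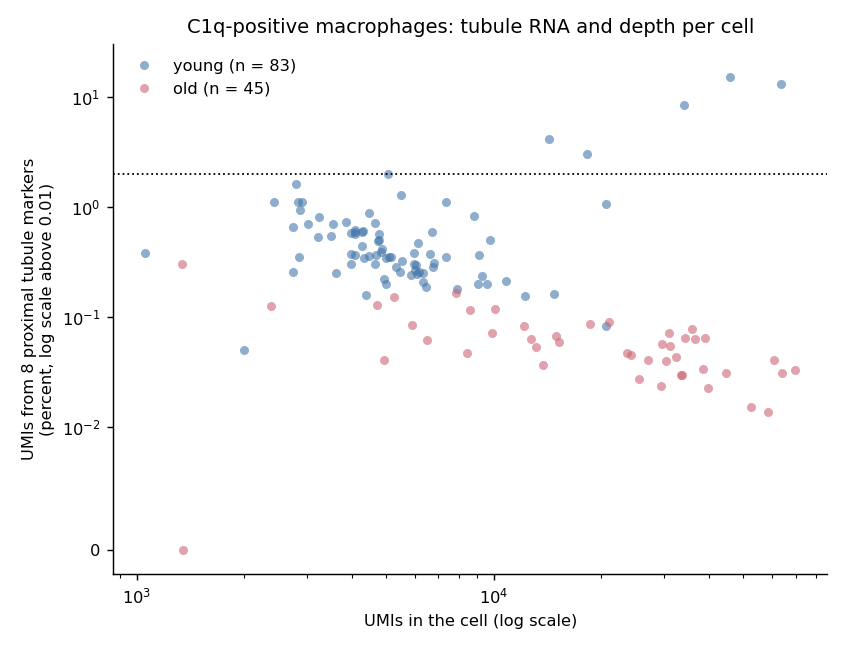
Each point is a C1q-positive macrophage, placed by its total UMIs (x axis, log scale) and by the percent of them that came from 8 proximal tubule markers (y axis, log scale above 0.01), for 83 young (blue) and 45 old (red) cells. The dotted line marks 2%, and the 5 young cells above it reach 14.9%, whereas no old cell exceeds 0.299%.

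To ask how these macrophages differed between young and old kidneys, the CPM of each gene was compared as a log2 ratio of old over young, with an exact binomial interval. Of 2553 genes with at least 100 UMIs, 294 were at least 2-fold higher in old (11.5%) and 318 at least 2-fold lower (12.5%), and the median log2 ratio was 0.09. Of the 318 lower genes 194 were higher in tubule cells than in young macrophages, against 10 of the 294 higher genes. Without the 5 tubule-rich cells the counts were 260 higher and 214 lower. Without the 3 young and 5 old cells that held at least 5 UMIs of S100a8 and S100a9 they were 261 and 286. Among the genes named below, the ratios of Abca1 (0.81), Cebpb (0.68), Fcer1g (0.67), Il2rg (0.92), Il4ra (0.64), Itgam (0.85), Timp2 (0.90) and Tmem173 (0.81) fell short of 2-fold without the tubule-rich cells. Those of Lpl (1.48), Lamp1 (1.33), Cxcl2 (-1.33) and Junb (-1.21) then passed it. Thinned to 1000 UMIs per cell, Ccl2 was at -0.56, Maf at -0.50, Cd86 at -0.86, Itgb2 at 0.78, Il1rn at 0.47 and Csf2rb at 0.88. The lists of genes described next are read against the 11.5% and 12.5%, which hold for the main setting only. Over all genes, 110 of 498 were higher and 57 lower in cells without UMIs of the 8 further lineage genes. With only Xist UMIs 89 and 42 of 470 were, and with only Y-linked UMIs 212 and 218 of 1293. After thinning they were 12 and 27 of 177. These counts kept the minimum of 100 UMIs. Listed genes kept ratios on fewer, so their counts in these settings are not directly comparable.

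Lipid handling and lysosomal genes stood higher in old macrophages. Of 28 measured genes of that list 18 were at least 2-fold higher in old and 0 lower, with a median log2 ratio of 1.34, and without the tubule-rich cells the count was again 18, with Abca1, Npc2 and Hexa no longer past 2-fold and Cd63, Lamp1 and Lpl past it. In cells with Y-linked and no Xist UMIs 19 were higher, in cells with Xist and no Y-linked UMIs 17, and after thinning each cell to 1000 UMIs 14 of 27. In the cells without UMIs of the 8 further lineage genes 15 were higher and 1 lower. Fabp5, a fatty acid-binding protein, was at 22.4 CPM in young and 2096 CPM in old macrophages, a log2 ratio of 6.55 (5.80 to 7.42). Per cell it ran from 0 to 3.64 UMIs per 10000 in young macrophages (median 0) and from 0 to 121 in old (median 3.58). Thus 22 of the 45 old cells exceeded every young cell, and the rest overlapped with them. Trem2, the lipid-sensing receptor of macrophages, was at 38.4 CPM (24.6 to 57.1) and 688 CPM (641 to 738). Of the young Trem2 UMIs 50% came from a single cell, and without the top cell of each library the log2 ratio of 4.16 became 4.99.

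Gpnmb, a glycoprotein of phagolysosomes, had no UMI in the 83 young macrophages and 360 in the old, from 17 of 45 cells. It was thus 66.7-fold higher in old with the young count of 0 set to 3 UMIs, a log2 ratio of 6.06 with an exact lower limit of 5.75. Its share of old cells was 37.8% as counted and 17.8% after every cell was thinned to 1000 UMIs, whereas 0.172% of old T cells, a class that should lack the gene, held a UMI at a median of 5170 UMIs. Lgals3 (galectin-3) stood at 150.3 and 2526 CPM, and 25 old cells exceeded every young one. Ctsd, the lysosomal protease cathepsin D, was at 286 CPM and 4305 CPM, a log2 ratio of 3.91 (3.70 to 4.13). The other cathepsins of the list differed among themselves. Ctsb was at 1181 and 4227 CPM and Ctss at 1675 and 6533 CPM, while Ctsl and Ctsc had log2 ratios of 0.29 and 0.38. Apoe, the cholesterol carrier apolipoprotein E, was at 9658 CPM in young and 33694 CPM in old macrophages. The log2 ratio of 1.80 became 0.61 in cells without UMIs of the 8 further lineage genes. Its per-cell range of 0 to 923 UMIs per 10000 in young (median 85.5) largely covered that of 0.252 to 1316 in old cells (median 198), and 6 old cells lay above it. Nr1h3, the oxysterol sensor LXRα, was at 17.6 and 186 CPM, and its target Abca1, a cholesterol exporter, at 46.4 and 113 CPM. Lipid genes under 2-fold included Abcg1 at 0.57 and Lpl at 0.68 on the log2 scale.

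Lyz2, the lysozyme of myeloid cells, was detected in every old macrophage. It was at 1669 CPM (1569 to 1773) in young and 22612 CPM (22335 to 22892) in old macrophages, a log2 ratio of 3.76 (3.67 to 3.85). Per cell it ran from 8.49 to 974 UMIs per 10000 in old cells (median 110.1) and from 0 to 209 in young cells (median 9.76). The ranges overlapped, with 11 old cells above all young ones. Other transcripts found in over 50% of old macrophages and higher there, named after their values were seen, were Wfdc17 (4.90), the coagulation factor gene F10, the actin-capping gene Capg (4.21), the semaphorin receptor gene Nrp2 (4.14), Nupr1 (4.26), Vat1 (3.77) and the membrane metalloproteinase gene Mmp14 (3.62), each as a log2 ratio. F10 had 0 UMIs in young and 193 in 24 old cells. With the count of 0 set to 3 UMIs it was 35.8-fold higher, a log2 ratio of 5.16 with an exact lower limit of 4.85.

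The letters CACGTG, an E-box bound by TFEB and related factors of lysosomal gene control, were searched in the 250 bases before the RefSeq start sites of the lipid handling and lysosomal genes. They read the same on both strands and were found in 4 of 21 matched genes (Abca1, Ctsd, Ctsl and Lamp1) and in 6.02% of all 32851 windows. Gpnmb, Trem2, Lgals3 and Lyz2 had no match, which says only that these letters are not in that window.

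**Figure D2:**
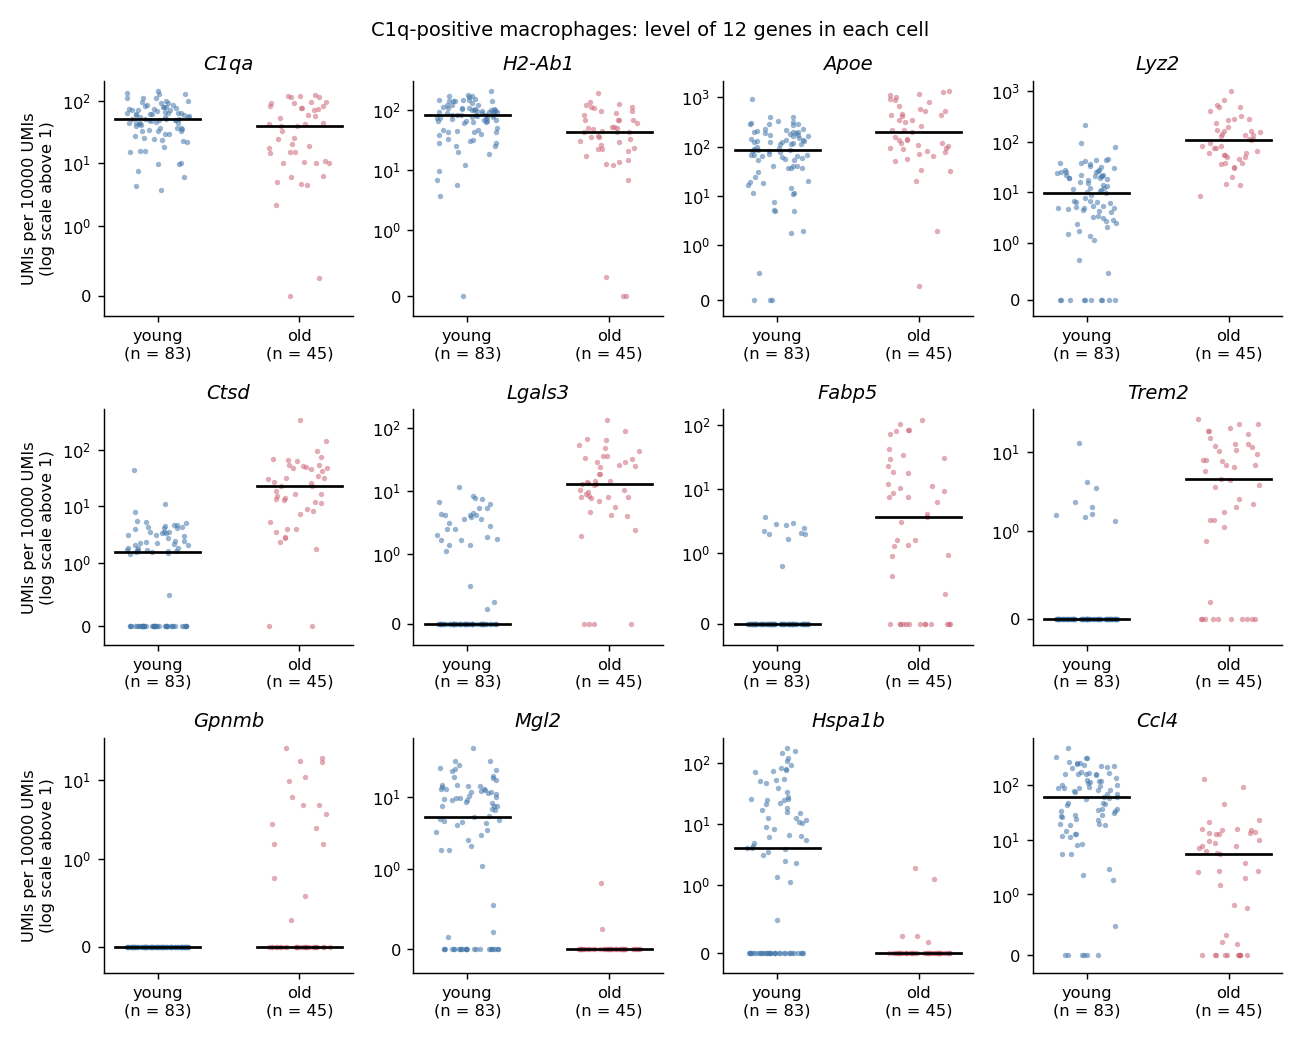
UMIs per 10000 of 12 genes (y axes, log scale above 1) in each young (blue, n = 83) and old (red, n = 45) macrophage, with the median as a black line. Points of Lyz2, Ctsd and Lgals3 sit higher in old cells, those of Mgl2, Hspa1b and Ccl4 higher in young cells, and C1qa and H2-Ab1 overlap throughout.

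The opposite was seen for immediate early and heat shock genes, of which 13 of 16 measured were at least 2-fold lower in old macrophages and 0 higher, with a median log2 ratio of -1.60. Hspa1a and Hspa1b, which encode the inducible chaperone HSP70, differed most. Hspa1b had 974 UMIs in 51 young cells (1557 CPM; 1461 to 1658) and 5 UMIs in 5 old cells (4.45 CPM; 1.44 to 10.4), a log2 ratio of -8.45 (-10.08 to -7.22). Per cell it ran from 0 to 173 UMIs per 10000 in young macrophages and to 1.90 in old, so that 48 of the 83 young cells exceeded every old cell while the others held little or none. In T cells of the same libraries 17.9% of young and 19.8% of old cells held an Hspa1b UMI. Hspa1a was at 1584 CPM and 13.3 CPM. The genes are near-identical copies on the minus strand of chromosome 17, at chr17:34969190-34972156 and chr17:34956436-34959238 (GRCm38, GENCODE), and how reads were divided between them is uncertain, so they are best read together. The 250 bases before their start sites, taken from RefSeq for GRCm38.p6, lie on the minus strand at chr17:34972157-34972406 for Hspa1a and chr17:34959239-34959488 for Hspa1b and are shown because these genes had the lowest ratios of any gene that was not higher in tubule cells. Capitals mark a heat shock element, spelled GAANNTTC, the site bound by heat shock factors.
Hspa1a: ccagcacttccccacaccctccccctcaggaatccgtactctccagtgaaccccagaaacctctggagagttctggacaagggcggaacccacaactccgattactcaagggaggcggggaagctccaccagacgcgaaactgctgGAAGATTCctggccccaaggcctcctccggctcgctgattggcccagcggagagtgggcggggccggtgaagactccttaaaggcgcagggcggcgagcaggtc
Hspa1b: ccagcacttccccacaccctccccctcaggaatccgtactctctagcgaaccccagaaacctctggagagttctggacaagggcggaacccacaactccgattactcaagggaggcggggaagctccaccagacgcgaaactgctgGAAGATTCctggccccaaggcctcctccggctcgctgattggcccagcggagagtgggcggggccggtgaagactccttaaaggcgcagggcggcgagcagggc
The windows were identical at 247 of 250 positions, and each held the motif with its first letter 104 bases before the start. GAANNTTC reads the same on both strands and was found in 6.69% of 32851 promoter windows of this length, and in those of 3 of 13 matched genes of the list (Hspa1a, Hspa1b and Jun). A match of letters shows no binding.

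The transcription factor genes of the same list differed less. Fos was at 4649 CPM in young and 1602 CPM in old macrophages, Jun at 4601 and 831 CPM and Egr1 at 1400.4 and 302 CPM, with log2 ratios of -1.54, -2.47 and -2.21. All of these are induced within minutes of a stimulus. Junb (-0.81), Hsp90aa1 (-0.80) and Nr4a1 (0.44) stayed under 2-fold. Without the tubule-rich cells 14 of the 16 genes were lower, after thinning 14, in cells with Y-linked and no Xist UMIs 13 and in cells with Xist and no Y-linked UMIs 12. In C1q-negative monocytes of the same libraries (barcodes with Csf1r and Lyz2 and without C1q and the lymphocyte genes, 169 young and 287 old) Hspa1a had a log2 ratio of -3.01 and Jun of -0.58. In endothelial cells Hspa1a was at -2.99, in proximal tubule cells at -2.49 and in ILC2s at -0.95, but in T cells at 0.73 and in B cells at 0.72. The lower level of Hspa1a in the old library was thus seen in monocytes, endothelial and tubule cells as well. It was under 2-fold in ILC2s and not seen in T and B cells. The endothelial cells were 270 in the young and 16 in the old library.

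**Figure D3:**
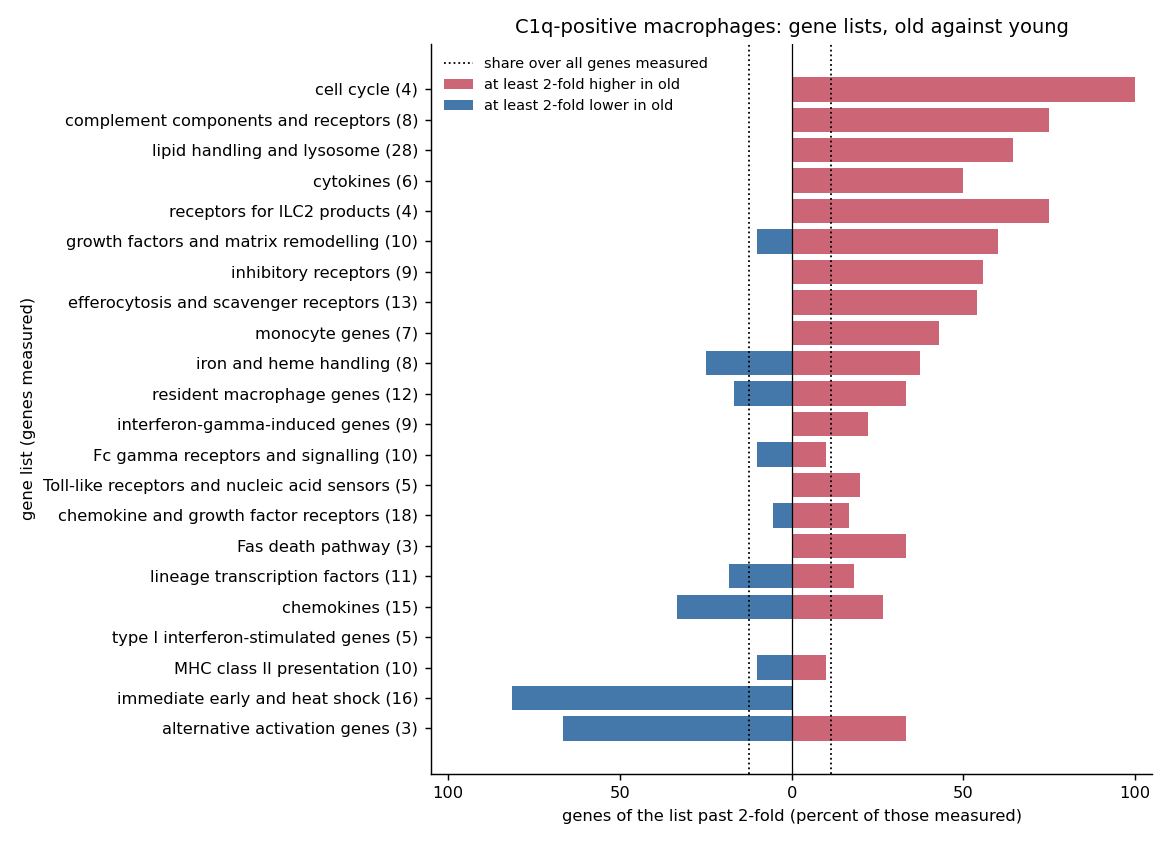
For each gene list with at least 3 measured genes (number in brackets), bars give the percent of them at least 2-fold higher in old (red, to the right) or lower in old (blue, to the left) macrophages. Dotted lines mark the shares over all genes, 11.5% and 12.5%. The bars of lipid handling and lysosome, complement and cell cycle lie to the right, and that of immediate early and heat shock lies to the left.

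Chemokine genes split into both directions. Of 15 measured, 5 were lower in old (Ccl2, Ccl3, Ccl4, Ccl12 and Pf4) and 4 higher (Ccl6, Ccl8, Ccl9 and Cxcl14), with a median of 0.04. Ccl4, an inflammatory chemokine, was at 6585 CPM (6385 to 6789) in young macrophages, against 739.8 CPM (690.4 to 792) in old. Ccl3, which attracts many of the same leukocytes, was at 3330.0 and 283 CPM. The per-cell median of Ccl4 was 61.1 UMIs per 10000 in young and 5.47 in old cells, and the ranges overlapped, with 22 young cells above every old one. In monocytes both genes were slightly higher in old, with log2 ratios of 0.30 (0.16 to 0.44) for Ccl3 and 0.68 (0.58 to 0.79) for Ccl4. Ccl2 and Ccl12, which attract monocytes through Ccr2, were at 344 and 103 CPM and at 347 and 38.2 CPM. Pf4, also a product of platelets, was at 213 and 22.2 CPM. Ccl8 had 12 UMIs in 2 young cells and 1016 in 19 old cells, and 46.8% of the old UMIs came from 1 cell. Its log2 ratio of 5.56 became 0.62 in cells without UMIs of the 8 further lineage genes. That set holds 13 young cells and at most these 12 young UMIs, so the lower ratio may reflect the count limit alone. Cxcl2, which attracts neutrophils, was at 2908 and 1585 CPM, and Cxcl9 and Cxcl10, both induced by interferon-gamma, had log2 ratios of 0.89 and -0.09. All 346 young UMIs of Cxcl9 came from 6 cells. Ccl6 was at 71.9 and 275 CPM. Its log2 ratio of 1.93 turned to -0.44 after thinning, which left few of its UMIs and gave no interval.

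Mgl2, a galactose-binding lectin of alternatively activated macrophages, was found in most young and few old cells. It had 354 UMIs in 59 of 83 young macrophages (566 CPM; 509 to 628) and 6 UMIs in 2 of 45 old ones (5.34 CPM; 1.96 to 11.6). The share of cells was 71.1% in young and 4.44% in old as counted, and 44.6% and 0% after thinning to 1000 UMIs, so the deeper capture of old cells did not go with more of them being positive. In T cells, which should lack it, 0.373% of young cells held a UMI. Mmp13, a collagenase, behaved alike, with 534 CPM in young and 7.11 CPM in old macrophages, and was nearly confined to macrophages among the classes compared, being at 3.20 CPM in young monocytes. Mrc1, the mannose receptor CD206, was at 158 and 38.2 CPM. Both Mgl2 and Mrc1 were also lower in old monocytes, by log2 ratios of -5.16 and -4.29. Of the 12 genes of the alternative activation list 3 were measured, so the list as a whole could not be compared, and Arg1 and Retnla had no UMI in either library. The third measured gene, Il4ra, was at 38.4 and 80.0 CPM, with a ratio that turned to -0.25 in cells without UMIs of 8 further lineage genes. Other transcripts that were lower in old cells and not higher in tubule cells, named after their values were seen, were Ch25h, a cholesterol hydroxylase (-4.85), the cell cycle kinase gene Cdk6 (-2.99), the sialyltransferase gene St3gal6 (-2.63) and the receptor gene Lilra5 (-2.54), each as a log2 ratio.

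**Figure D4:**
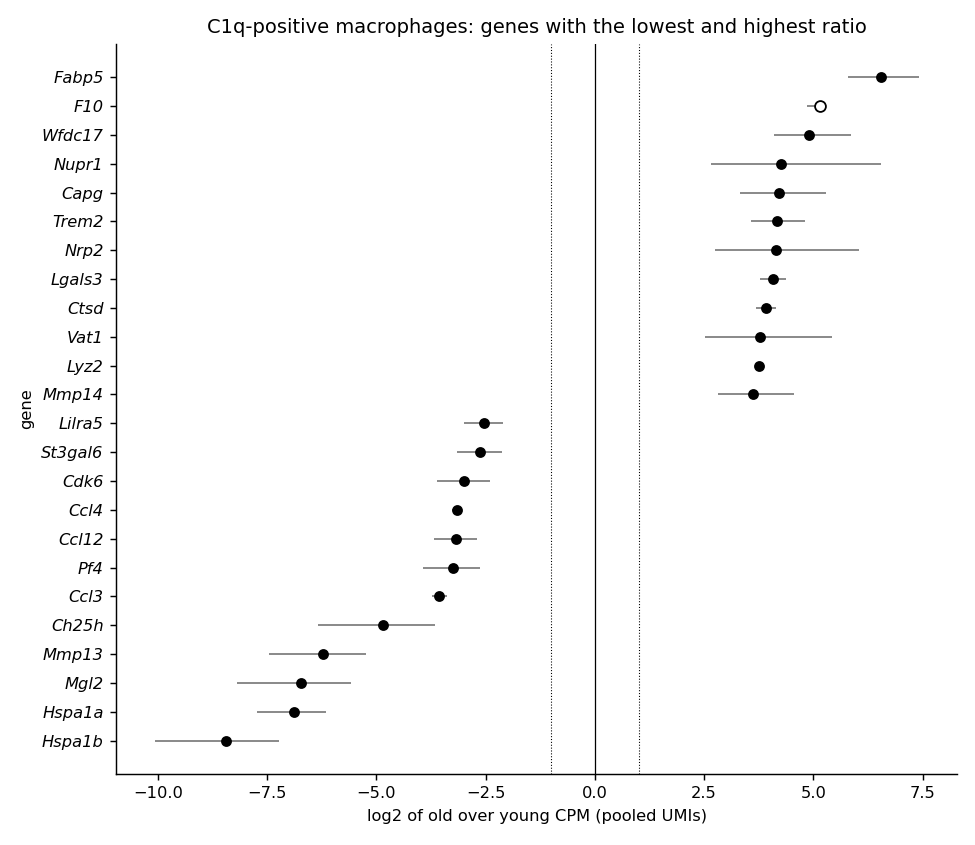
Log2 ratio of old over young CPM (x axis) for the 12 genes with the lowest ratio among those not higher in tubule cells and the 12 with the highest ratio among those found in at least 50% of old macrophages. Lines are 95% counting intervals, and dotted lines mark 2-fold. The open circle is F10, with its young count of 0 set to 3 UMIs. The lowest is Hspa1b at -8.45 and the highest Fabp5 at 6.55.

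Complement genes other than C1q were mostly higher in old macrophages, with 6 of 8 measured past 2-fold and 0 lower. C3, the central component of the cascade, was at 70.3 CPM (51.1 to 94.4) in young and 656 CPM (609.7 to 705) in old macrophages. Its young UMIs came from 4 cells, 59.1% of them from 1, and its old UMIs from 27 cells. Cfb and Cfp, factor B and properdin of the alternative pathway, had log2 ratios of 2.57 and 2.58. The integrin chains of the complement receptors, Itgam, Itgax and their partner Itgb2, were at 1.29, 1.62 and 2.11, whereas the receptors for C3a and C5a did not differ 2-fold (C3ar1 -0.06, C5ar1 -0.38). Without the tubule-rich cells 5 of the 8 genes were higher, and after thinning 3 of 7, with Itgam at -0.12 on few UMIs.

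Receptors for dying cells and debris were higher in part. Of 13 measured genes of this list 7 were at least 2-fold higher in old and 0 lower, but 5 of 13 without the tubule-rich cells and 4 of 12 without the S100a8 and S100a9 bearing cells. Lrp1, a large endocytic receptor, was at 43.2 and 269 CPM and the scavenger receptor gene Msr1 at 60.7 and 230.3 CPM. Mertk and Axl, the receptor kinases that recognise phosphatidylserine through bridging proteins, had log2 ratios of 0.85 and -0.16, both under 2-fold. Marco counted among the 7 only through 1 old cell, which held 99.4% of its 154 UMIs. Of the inhibitory receptors 5 of 9 were higher, among them Cd274 (PD-L1) at 24.0 and 120.0 CPM, Pirb at 1.83 and Clec12a at 1.79 on the log2 scale. That count was 3 without the tubule-rich cells.

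Summed over cells, most measured genes of antigen presentation, antibody binding and the type I interferon response stayed under 2-fold. Of 10 measured genes of class II presentation 1 was higher (Ctss) and 1 lower (Cd86), near the share over all genes, and the median was -0.26. In cells without UMIs of the 8 further lineage genes 2 were higher and 6 lower, with a median of -1.20. Cd74, the invariant chain, was at 24138 CPM in young and 20547 CPM in old macrophages, and the class II chain gene H2-Ab1 at 6129 and 4799.8 CPM. The per-cell medians lay further apart, at 314 and 171 UMIs per 10000 for Cd74 and 81.7 and 43.6 for H2-Ab1, with ranges that overlapped. Among Fc gamma receptors, which bind antibody complexes, Fcgr1, Fcgr2b, Fcgr3 and Fcgr4 had log2 ratios of 0.34, 0.05, 0.60 and 0.15. The shared signalling chain gene Fcer1g was at 1234 and 2572 CPM, and Fcgrt, the neonatal Fc receptor that recycles antibody, at 237 and 56.9 CPM. Of 24 listed type I interferon-stimulated genes only 5 had enough UMIs to be measured. None of the 5 passed 2-fold in either direction, and their median was -0.14. But 2 of 5 were lower without the tubule-rich cells and 3 of 5 in cells without UMIs of the 8 further lineage genes. The count for 9 interferon-gamma-induced genes depended on the setting: 2 were higher, Cd274 among them, and 0 lower as counted, 5 higher and 2 lower after thinning, 4 and 0 with the mean of each cell's CPM and 6 and 0 in cells with Xist and no Y-linked UMIs.

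Of 10 measured genes of growth factors and matrix remodelling 6 were higher in old and 1 lower, with a median of 1.18, and 4 were higher and 2 lower without the tubule-rich cells. Of 6 cytokine genes 3 were higher and 0 lower, with a median of 1.25, and of 8 iron and heme genes 3 were higher and 2 lower. Il1b, the inflammatory cytokine interleukin-1β, was at 1365 and 921 CPM and Tnf at 94.3 and 73.8 CPM, both under 2-fold. The antagonist gene Il1rn was at 19.2 and 123 CPM and Il18bp, which binds interleukin-18, at 67.1 and 280.1 CPM, and 7 young cells held all the young UMIs of Il18bp. Fth1, the ferritin heavy chain, was at 7409.9 and 24381 CPM. Grn (progranulin) and Timp2, an inhibitor of metalloproteinases, had log2 ratios of 2.02 and 1.30. Of 4 measured receptor genes for products of ILC2s, the cells the study was built around, 3 were past 2-fold (Il4ra at 1.06, Il2rg at 1.36 and Csf2rb at 1.59), but 1 of 4 was without the tubule-rich cells, 1 after thinning, 1 with the mean of each cell's CPM and 0 in cells without UMIs of the 8 further lineage genes. Vcam1, a ligand of α4 integrins, was at 48.0 CPM in young macrophages, from 11 cells, and at 284 CPM in old, from 21. Its log2 ratio of 2.56 became 0.36, under 2-fold, in cells without UMIs of the 8 further lineage genes. Madcam1 had no UMI in either library.

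Genes that mark lineage and origin differed in part. Of 11 measured lineage transcription factor genes 2 were higher in old (Nr1h3 and Cebpb) and 2 lower (Maf and Klf4), with a median of 0.04. Klf4 was just past 2-fold, at -1.01, and under it with both Csf1r and Adgre1 required (-0.68) and after thinning (-0.85). Maf, which maintains mature macrophages, was at 376 and 95.1 CPM, though its ratio turned to 0.25 in cells without UMIs of the 8 further lineage genes. Of 12 resident macrophage genes 4 were higher (Apoe, Trem2, Itgam and Itgax) and 2 lower, Mrc1 and the tetraspanin gene Cd81 at 782 and 283 CPM. Of 7 measured monocyte genes 3 were higher (Lyz2, S100a4 and S100a6) and 0 lower, so that both lists held a larger share of higher genes than the 11.5% over all genes. In cells without UMIs of the 8 further lineage genes 2 resident genes were higher and 4 lower, and in cells with Xist and no Y-linked UMIs 1 monocyte gene was higher and 2 lower. Tlr2, a sensor of bacterial lipoproteins, had a log2 ratio of 0.28 and Tmem173, which encodes the DNA-sensing adaptor STING, of 1.23, the only one of 5 measured sensors past 2-fold. That call was lost without the tubule-rich cells (0.81) and after thinning (0.15). Fas, the gene mutated in this strain, had 3 UMIs in young and 3 in old macrophages, too few to compare.

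Some of the highest ratios rested on few cells. Pla2g2d, a secreted phospholipase, had 1 UMI in young and 547 in old macrophages, the latter from 6 cells, a log2 ratio of 8.25 (5.76 to 13.56). Gm15056 had 0 and 683 UMIs, 81.7% of them in 1 old cell, and Saa3, a serum amyloid A gene, 0 and 126, 88.1% in 1 cell. Slpi, a protease inhibitor, had 64.4% of its 320 old UMIs in 1 cell and Spp1 (osteopontin) 50.9% of its 562. Of the 294 higher genes 5 owed over 50% of their UMIs in old cells to 1 cell, and of the 318 lower genes 8 in young cells. AA467197, Cst7 and Pclaf followed at log2 ratios of 5.32, 4.58 and 4.44. In cells without UMIs of the 8 further lineage genes AA467197 was at 0.94 and Pclaf at 0.79. At the low end 9 of the 12 genes were transcripts that stood higher in tubule cells (Inmt, Cyp2j5, Akr1c21, Ugt2b38, Slc7a13, Slc4a4, Slc22a12, Me1 and Kap). Akr1c21, for example, went from a log2 ratio of -7.13 to -4.24 without the 5 tubule-rich cells. Hspa1b and Mgl2 went from -8.45 to -8.73 and from -6.73 to -7.19.

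Cell cycle transcripts were found mainly in the old library. All 4 measured cell cycle genes were higher in old, with a median log2 ratio of 3.27. Mki67 had 8 UMIs in 1 young cell and 117 in 17 old cells, and Top2a 5 in 5 and 103 in 12. At least 2 of the 4 genes Mki67, Top2a, Birc5 and Pclaf were detected in 1 young and 12 old macrophages, and the 12 had a median of 31595 UMIs, above that of the old cells as a whole. After thinning, Mki67 remained in 1.20% of young and 4.44% of old macrophages, too few to compare. In the 18 young and 15 old cells with Xist and no Y-linked UMI only 2 of the 4 measured genes had a ratio, and both were lower in old. Mki67 was at a log2 ratio of -2.41 there, but all of its young UMIs came from 1 cell.

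The macrophages of each library were not uniform. Ccr2, the receptor that brings monocytes into tissue, was at 165 CPM in young and 178 CPM in old macrophages, a log2 ratio of 0.11 (-0.24 to 0.47). After thinning to 1000 UMIs, 5 of 83 young macrophages held Ccr2 without Cx3cr1 (6.02%; exact interval 1.98 to 13.5) and 5 of 45 old ones (11.1%; 3.71 to 24.1). Cx3cr1 without Ccr2 was held by 36 young (43.4%; 32.5 to 54.7) and 16 old cells (35.6%; 21.9 to 51.2), and both by 5 young and 1 old cell. These intervals overlapped. As counted, both receptors were found together in 26 young (31.3%) and 15 old cells (33.3%), and Ccr2 alone in 0 young cells, for which the exact upper limit was 4.35%, and in 7 old cells. The young cells with both receptors held more Lyz2 (3237 CPM) than those with Cx3cr1 alone (959 CPM), and Plac8, a gene of monocytes, was at 643 CPM in the former and 12.5 CPM in the latter, with 84.8% of all young Plac8 UMIs and 29.4% of all young Lyz2 UMIs in 1 cell each. In the old library Gpnmb was at 659 CPM in the 18 cells with Cx3cr1 alone and 14.7 CPM in the 7 with Ccr2 alone, but also at 771 CPM in the 5 with neither receptor and 30.7 CPM in the 15 with both. Apoe was at 56112 CPM with Cx3cr1 alone and 24521 CPM with Ccr2 alone.

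The 17 old macrophages with a Gpnmb UMI were set beside the 28 without, a split made after the values were seen. The first were the deeper cells, with a median of 32333 UMIs against 18164.5. Fabp5 was at 3679 CPM in cells with Gpnmb and 636 CPM in cells without, Ctsd at 6667 and 2128 CPM, and Apoe at 46626 and 21769.8 CPM. Nr1h3 was at 196 and 176 CPM. Of these genes, then, Fabp5, Ctsd and Apoe were higher in cells with Gpnmb and Nr1h3 was alike. Ccr2 went the other way, at 37.1 and 308 CPM, as did Plac8 at 90.8 and 649 CPM. H2-Ab1 was alike, at 4684 and 4907 CPM. Even the old cells without Gpnmb held more Fabp5, Ctsd and Lyz2 (20707 CPM) than the young macrophages. In the young library the 59 cells with an Mgl2 UMI and the 24 without had like depths (medians of 5100 and 4916.5 UMIs). Those with Mgl2 held Mmp13 at 674 CPM against 197 CPM, Ccl3 at 3958 against 1813 CPM and Pf4 at 264 against 87.4 CPM. Hspa1b did not follow this split, at 1530.3 and 1622 CPM.

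C1q-negative monocytes share Csf1r and Lyz2 with the macrophages, and both classes were compared within each library. Macrophages had less of several transcripts of blood monocytes in both. Fn1 (fibronectin) was at 3.20 CPM in young macrophages and 653 CPM in young monocytes, and at 18.7 and 364 CPM in the old library. Ly6c2, a surface marker of inflammatory monocytes, was at 43.2 against 497 CPM in young and 28.5 against 740.2 CPM in old cells. F13a1, Vcan, Mmp8, Chil3, Ms4a8a, Glipr2, Cd177 and Pdlim1 were lower in macrophages in both as well. Higher in macrophages of both libraries were Mertk, at log2 ratios over monocytes of 4.18 in young and 4.08 in old, Il18bp (3.91 and 4.12), the cyclooxygenase gene Ptgs1 (4.54 and 6.56), the elastase gene Mmp12 (3.98 and 7.96), Pmepa1 and Pf4. H2-M2, a class I-like gene, had no UMI in monocytes of either library and 66 and 655 UMIs in young and old macrophages. S100a8, S100a9 and Retnlg also ranked as higher in macrophages, which the classes themselves set: barcodes that met the neutrophil rule were kept out of the monocytes and not out of the macrophages.

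Several age ratios of the macrophages were not seen in monocytes. Lgals3 had a log2 ratio of 4.07 in macrophages and -0.06 (-0.12 to 0.01) in monocytes, and Trem2 of 4.16 and -0.12 (-0.49 to 0.25). Lyz2, which the monocyte rule itself uses, had 3.76 and -0.58. Its level in old macrophages, 22612 CPM, was near that of young monocytes, 22779 CPM. Fabp5 (1.10), Ctsd (1.84) and F10 (3.28, at 41.0 and 399 CPM) were higher in old monocytes too. With 1 library per age the difference between the ratios of the classes was not tested.

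**Figure D5:**
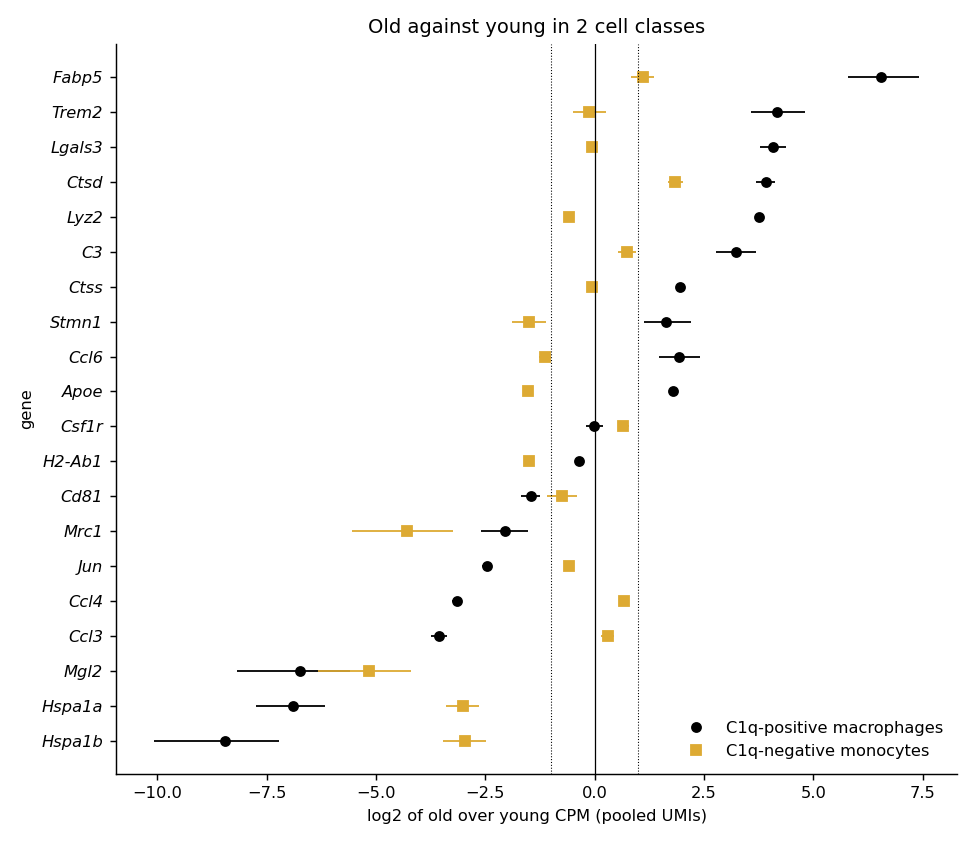
Log2 ratio of old over young CPM (x axis) of 20 genes in C1q-positive macrophages (black circles) and C1q-negative monocytes (yellow squares), with 95% counting intervals as lines and 2-fold as dotted lines. Trem2, Lgals3 and Lyz2 stand well to the right of 0 in macrophages and near or below 0 in monocytes, and Mgl2, Hspa1a and Hspa1b lie to the left in both.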

How the data were processed

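Kidney cells of young and old MRL-lpr mice, pooled by age, were sequenced as 1 library each (2 in all) with 10x 3′ v3.1 chemistry. The deposited values are raw UMI counts per gene (31053 genes) and barcode, made by the authors with Cell Ranger 3.1.0 (file header; the submitters' processing notes give Cell Ranger 3) on mm10. The deposited matrices held 15076 young and 12622 old barcodes, before the study's filters. Kept barcodes had no fewer than 200 detected genes and no more than 20% mitochondrial UMIs (11429 and 10232; 145647185 and 119218130 UMIs). The members, gene lists and comparisons were chosen with earlier results of these data known, so they are not independent support for one another.

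Counts were summed over the macrophages of a library and divided by their total (CPM), with exact Poisson intervals. Genes with at least 100 UMIs over both libraries were compared as log2 of old over young CPM with exact binomial intervals. A library at 0 UMIs was set to 3 counts. Called means at least 2-fold, and no p-value was computed with 1 library per age. Shares have exact 95% Clopper-Pearson intervals. For shares of cells with a UMI each cell was thinned to 1000 UMIs (seed 7). Other classes were set by marker genes in the same way. Doublets were called with Scrublet and kept in the main result.

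Named genes were the 12 highest and 12 lowest ratios among genes with a UMI in at least 10% of cells of the higher library, without genes of the selection, sex-linked, mitochondrial, hemoglobin, immunoglobulin and T cell receptor genes or genes at least 10 times higher in another class; the 10 at each end against monocytes; and genes of the lists. Because 9 of the low 12 were tubule genes, 24 genes were added after the values were seen: the 12 lowest not higher in tubule cells and the 12 highest found in at least 50% of old macrophages. Alternatives changed the thresholds, second marker, lineage genes, doublets, filters, totals, weights and depth. Scripts were tested on simulated data. Python 3.11.15 was used with Scanpy 1.11.5, pandas 2.3.3, SciPy 1.17.1, NumPy 2.4.6 and Matplotlib 3.10.9. Gene positions are from GENCODE vM21 and promoters from RefSeq, both on GRCm38.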

Additional observations from a re-analysis of the deposited data

Results flagged for a closer look

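For 4 genes the C1q-positive macrophages and the C1q-negative monocytes of the same libraries moved at least 2-fold in opposite directions between young and old. Apoe, the cholesterol carrier, was higher in old macrophages with a log2 ratio of 1.80 and lower in old monocytes with -1.51 (-1.59 to -1.44), from 2248 to 787 CPM. Ccl6, a myeloid chemokine, had 1.93 in macrophages and -1.14 in monocytes. Stmn1, a tubulin-binding protein of dividing cells, had 1.64 and -1.50 (-1.89 to -1.11). Gm15056 had 6.98 with its young count of 0 set to 3 UMIs, with 81.7% of its old UMIs in 1 macrophage, and -2.59 (-3.19 to -2.01). In cells thinned to 1000 UMIs the macrophage ratio of Apoe was 1.63, and that of Ccl6 turned to -0.44 on few UMIs. In macrophages without UMIs of the 8 further lineage genes the ratio of Apoe was 0.61, under 2-fold. With 1 library per age the difference between the classes was not tested.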

How the results depend on the processing

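The share of macrophages moved beyond its counting interval in the young library with both Csf1r and Adgre1 required (0.542%), with no UMI of 8 further lineage genes (0.114%; old 0.166%), and in cells with only Y-linked (0.568%) or only Xist UMIs (1.08%), and in no other setting tried. The 294 higher and 318 lower genes became 110 and 57 without UMIs of the 8 lineage genes (13 young and 17 old cells), 89 and 42 in cells with only Xist UMIs, 12 and 27 after thinning, 802 and 1323 with at least 20 UMIs per gene and 74 and 55 with at least 500, settings that also changed how many genes were measured (498, 470, 177, 7618 and 459 against 2553). The share of called genes that were higher went from 48.0% to 65.9%, 67.9%, 30.8% and 37.7% in the first 4 of these.

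Receptor groups depended on depth. In young cells Ccr2 alone was 0% as counted, Cx3cr1 alone 56.6% as counted and 31.3% at 500 UMIs, both 31.3% as counted and 16.05% at 2000, and neither 12.05% as counted, 62.7% at 500 and 30.9% at 2000. In old cells Cx3cr1 alone was 17.8% at 500, both 33.3% as counted and 0% at 500, and neither 11.1% as counted and 73.3% at 500.

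Of 129 named or listed genes past 2-fold, 70 stayed so in the same direction under all 17 alternatives that gave them a ratio. The other 59 fell under 2-fold in at least 1 alternative, and 15 of these turned. Some of the 17 could not change a ratio. A changed minimum of UMIs per gene only decided whether a ratio was given. The higher minimum of genes per barcode kept the same 83 young and 45 old cells. The count of 70 thus rests on fewer than 17 alternatives that could have altered it. Without UMIs of the 8 lineage genes Maf was 0.25, Itgax -0.23, S100a6 -0.79, Cd300lf -0.21, Il4ra -0.25, Timp2 -0.0083 and Ier3 0.16. With only Xist UMIs Itgam was -0.79, S100a4 -2.41, S100a6 -0.41, Ccl9 -0.41, Pilra -0.41, Mki67 -2.41, Stmn1 -2.67 and Ier3 0.37, and after thinning Itgam was -0.12, Ccl6 -0.44 and Hexa -0.36. The cause was not tested. Settings that left out tubule-rich cells, cells with S100a8 and S100a9 UMIs or the top cell of a gene were added after seeing the data. No paired analysis was possible because each age has 1 library. With 45 old and 83 young cells, genes under 100 UMIs were not measured in the main setting. Under most alternatives, named and listed genes measured there kept a ratio on fewer UMIs too, without an interval. Ratios after thinning or in small sets of cells can thus rest on few counts.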
